A study of Mus musculus with 4 samples.

Results

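The genes described here encode 10 secreted proteins of the extracellular matrix: the CCN proteins Ccn1 and Ccn2, the thrombospondins Thbs1, Thbs2, Thbs3 and Thbs4, osteopontin (Spp1), tenascin-C (Tnc), fibronectin (Fn1) and Sparc. They were chosen by their symbols, and all 10 were found among the 25827 genes listed in each library. The set had been selected on earlier results of these same libraries. Spp1, Tnc and Fn1 were taken because they lead a progenitor state, and Ccn2 and Thbs1 because they leaned higher in sums of knockout cells. Levels of the 10 genes by cluster and by genotype are therefore given as a description, with no test. For the 7 genes other than Spp1, Tnc and Fn1, gates on Pax7, Myog, Mki67 and Top2a gave comparisons that the choice had not used.

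Myogenic progenitors (MPs) were profiled by single-cell RNA sequencing 6 days after cardiotoxin, a venom component that lyses muscle fibres, was injected into the tibialis anterior muscle of 12-week-old male mice. The control group (Pax7Cre) held 2 libraries and the knockout group (miR-501KO, genotype Pax7CremiR-501fl/Y) held 2. Both groups carried the Pax7Cre allele, which drives Cre from the Pax7 locus without induction, so recombination was not limited to the adult or to the days after injury. The knockout also carried a floxed miR-501 on its single X chromosome. Each library pooled 3 mice, and libraries with the same replicate number shared an experimental run, so p-values between genotypes rest on 4 pools. Cells were sorted as α7-integrin+ and CD45-, CD31- and Sca1-, a gate that should remove haematopoietic and endothelial cells and most fibro-adipogenic cells.

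Matricellular proteins are secreted into the matrix without forming its load-bearing fibres, and they signal to cells through integrins, syndecans, CD44, CD36 and CD47. Fibronectin, by contrast, assembles into fibrils, but in regenerating muscle it is made early and is part of the niche of dividing satellite cells. Tenascin-C and osteopontin also rise after muscle injury, and Sparc binds collagen and affects how cells adhere. Ccn1 and Ccn2 are textbook targets of the YAP and TAZ coactivators with TEAD transcription factors, and Ccn2 also responds to TGF-beta. Thbs1 and Thbs2 form trimers and Thbs3 and Thbs4 form pentamers, and Thbs4 is abundant in tendon and at the muscle-tendon junction.

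The deleted gene gives a pair of mature miRNAs, printed because they are what the knockout removes. Both come from RefSeq (GRCm38.p6, minus strand), at chrX:7241270-7241291 for the 3p arm and chrX:7241307-7241328 for the 5p arm. Capitals mark the seed, bases 2 to 8 from the 5′ end.
mmu-miR-501-3p: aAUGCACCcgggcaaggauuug
mmu-miR-501-5p: aAUCCUUUgucccugggugaaa
The reverse complement of the 3p seed, GGTGCAT, was in the 3′ UTR of 0 of the 10 genes, against 6.15% of 21025 genes in GENCODE vM21 (longest coding transcript UTR per gene, sense strand). The reverse complement of the 5p seed, AAAGGAT, was in 1 of 10, Tnc, against 11.5% of all genes. It lies 47 bases into the Tnc 3′ UTR of 648 bases, and capitals mark the match.
Tnc site: cagagaaaagAAAGGATttttaccaaa
The paper states that the arm whose seed matches Tnc is not expressed in activated MPs. A match describes letters only, and whether Tnc is a target was not tested. The levels of Tnc by genotype are given with those of the other genes.

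RefSeq start sites (GRCm38.p6) gave upstream sequence for 7 of the 10 genes. No entry was found for Ccn2, Thbs1 or Fn1. The 250 bases before the start are printed for Ccn1 (chr3:145649986-145650235, minus strand) and Thbs4 (chr13:92794819-92795068, minus strand), which hold a TEAD core, and for Spp1 (chr5:104434861-104435110, plus strand) and Tnc (chr4:64046937-64047186, minus strand), which were both higher in cluster 2 than in committed-like, cycling-like or quiescent-like cells. Capitals mark the TEAD core, searched as GGAATG. They also mark the TATA box, searched as TATAAA. Both were searched on both strands, so the reverse complement is in capitals as well.
Ccn1: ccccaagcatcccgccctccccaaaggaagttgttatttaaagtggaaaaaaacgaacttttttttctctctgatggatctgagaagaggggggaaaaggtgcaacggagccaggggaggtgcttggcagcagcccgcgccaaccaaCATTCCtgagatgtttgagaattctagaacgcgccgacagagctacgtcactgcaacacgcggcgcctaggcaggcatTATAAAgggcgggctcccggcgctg
Thbs4: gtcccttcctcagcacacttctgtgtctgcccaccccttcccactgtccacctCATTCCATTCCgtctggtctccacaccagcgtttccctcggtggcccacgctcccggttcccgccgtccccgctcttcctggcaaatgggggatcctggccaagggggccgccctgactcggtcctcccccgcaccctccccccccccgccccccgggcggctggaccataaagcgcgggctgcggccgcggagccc
Spp1: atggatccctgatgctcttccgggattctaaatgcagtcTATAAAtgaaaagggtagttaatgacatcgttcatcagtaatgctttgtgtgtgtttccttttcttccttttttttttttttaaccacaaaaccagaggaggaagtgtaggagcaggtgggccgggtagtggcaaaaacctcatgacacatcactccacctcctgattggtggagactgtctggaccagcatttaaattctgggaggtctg
Tnc: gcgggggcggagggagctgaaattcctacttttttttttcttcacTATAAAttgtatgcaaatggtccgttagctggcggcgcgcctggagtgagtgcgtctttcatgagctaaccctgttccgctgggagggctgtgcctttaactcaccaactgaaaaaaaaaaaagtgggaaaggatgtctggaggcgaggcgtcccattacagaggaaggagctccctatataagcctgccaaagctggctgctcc
The TEAD core was in 2 of the 7 genes and in 12.6% of 32851 upstream sequences of the same length. Both copies in Thbs4 overlap by 1 base. In Ccn1 the core begins 103 bases before the start and a TATA box 25 bases before it. The TATA letters were upstream of 4 of the 7 genes, against 12.4% of all upstream sequences, of which a gene can have more than 1. Outside Ccn1 they began farther from the start, 211 bases before it at the printed Spp1 start site and 126 in Thbs2. Another Spp1 start site held no match. In Tnc the letters began 205 or 126 bases before the start, by start site. Only the exact letters were searched, so variants of the TATA box were not counted. A match at such a distance describes letters only.

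Of 16519 barcodes, 10450 had at least 5000 UMIs (unique molecular identifiers, 1 per captured RNA molecule) and 1000 genes, from 1829 to 3439 a library with medians of 25254 to 34579 UMIs. The 4 libraries shared 10 cell barcodes. Leiden clusters were named with "-like" from marker lists, and the 10 genes were left out of the genes that made the clusters. Quiescent-like (2897 cells), cycling-like (1979) and committed-like (1319) cells, an unnamed cluster 2 (1783), an unnamed cluster 7 (587, median 28.7% mitochondrial UMIs) and a small cluster with endothelial markers (21) made up 8586 cells in 9 myogenic clusters. Fibroblast-like (236 cells), mural-like (260), Schwann-like (194) and macrophage-like (342) cells had also passed the sort. miR-501KO replicate 1 stood apart, with 28.2% of its cells in 6 clusters that held at most 1 cell of any other library (single-library clusters). Every cell in them had a UMI of Pax7, Myf5, Myod1 or Myog. The largest, of 659 cells, had 8 of 13 committed-like and 7 of 12 macrophage-like markers raised. These clusters were kept out of the myogenic set, so comparisons in myogenic clusters do not cover this part of miR-501KO replicate 1. Fibroblast-like cells made up 0.727% and 0.547% of the Pax7Cre libraries and 2.47% and 5.58% of the miR-501KO libraries. A 3′ tag count of mRNA does not read miR-501, so the deletion itself was not checked in these data. Levels are CPM, the UMIs of a gene scaled to the summed UMIs of a class and library as counts per 1000000.

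Among quiescent-like, cycling-like, committed-like and cluster 2 cells, Spp1, Tnc and Fn1 were highest in cluster 2, whose leading genes include Spp1 and Fn1 beside Ass1, Cdh11, Cdkn2b and Tagln. Spp1, an integrin and CD44 ligand, was at 2861 and 2488 CPM in the Pax7Cre libraries and 2143 and 2641 CPM in the miR-501KO libraries in cluster 2. It was at 1066 ± 218 CPM (SD, n = 4 libraries) in cycling-like, 639.8 ± 96.7 CPM in quiescent-like and 206 ± 55.9 CPM in committed-like cells. The 4 values of cluster 2 were above all values of those 3 classes, and the committed-like values were below the other 2 classes. Within a library, the level in cluster 2 was 3.31 to 5.26 times that in quiescent-like cells. Macrophage-like cells, which are known to make osteopontin, held 951 to 3017 CPM, and mural-like cells 14.9 to 71.1 CPM. After thinning each cell to 5000 UMIs, 87.0% to 89.7% of cluster 2 cells had a Spp1 UMI (median depth 37112 before thinning), against 7.32% to 21.6% of mural-like cells (20093), the class with the lowest Spp1 level. No cell was shallower than the thinned depth, and unthinned 8303 of all 10450 cells had a Spp1 UMI. In committed-like cells the share was 22.5% to 30.5%, above that range.

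Fn1, the fibril-forming ligand of α5β1 integrin, was at 649 and 734 CPM in the Pax7Cre libraries and 891 and 649 CPM in the miR-501KO libraries in cluster 2. Quiescent-like cells held 163 ± 26.1 CPM (SD, n = 4), cycling-like cells 289.8 ± 21.7 CPM and committed-like cells 84.5 ± 6.00 CPM. These 4 classes did not overlap, and their order was cluster 2, cycling-like, quiescent-like, committed-like. Tnc, an anti-adhesive glycoprotein that is scarce in resting muscle, was at 243 and 301 CPM in the Pax7Cre libraries and 352 and 262 CPM in the miR-501KO libraries in cluster 2 and at 133 ± 11.3 CPM, 95.4 ± 21.1 CPM and 28.4 ± 4.92 CPM in cycling-like, quiescent-like and committed-like cells. It kept the same order, again without overlap. Neither gene was highest in cluster 2 over all classes. The fibroblast-like cells of the 3 libraries with at least 20 of them held 1447 to 2832 CPM of Fn1 and 442 to 730.4 CPM of Tnc. The high-mitochondrial cluster 7 held 632 to 942 CPM of Fn1, which overlapped cluster 2, and 425 to 569 CPM of Tnc, which did not. Tnc in Schwann-like cells ranged most, from 95.9 to 744 CPM.

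Sparc, a collagen-binding glycoprotein also called osteonectin, was the most abundant of the 10 in total (672880 UMIs) and was followed by Spp1 (392301), while Thbs3 had the fewest (1821). These totals count molecules by their 3′ ends, with no correction for transcript length. In myogenic classes Sparc was highest in quiescent-like cells, at 2641 ± 247 CPM (SD, n = 4), which overlapped cluster 2 at 2390.2 ± 203 CPM. Cycling-like cells held 1471 ± 171 CPM and committed-like cells 826 ± 71.0 CPM, each below the class before it without overlap. Fibroblast-like, mural-like and Schwann-like cells all lay above the myogenic classes, between 4747 and 8323 CPM. Macrophage-like cells had the lowest level, 249 to 526 CPM.

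Ccn1 and Ccn2, the integrin-binding CCN proteins, did not follow cluster 2 alike. Ccn1 was at 46.8 and 68.4 CPM in the Pax7Cre libraries and 63.6 and 120.1 CPM in the miR-501KO libraries in quiescent-like cells and at 37.4 and 42.1 CPM in the Pax7Cre libraries and 51.0 and 66.1 CPM in the miR-501KO libraries in cluster 2. In each library Ccn1 was lower in cluster 2 than in quiescent-like cells, at 0.550 to 0.803 times the level there, although the ranges of both classes overlapped. Ccn2 was at 34.7 and 17.5 CPM in the Pax7Cre libraries and 12.9 and 23.1 CPM in the miR-501KO libraries in cluster 2. Quiescent-like cells held 4.15 to 9.48 CPM, all below those values, cycling-like cells 3.78 to 10.2 CPM and committed-like cells 1.26 to 3.58 CPM. The highest Ccn2 levels were in fibroblast-like (79.6 to 488 CPM), mural-like (65.0 to 95.2 CPM) and Schwann-like cells (60.7 to 103 CPM). One of the single-library clusters, of 33 cells, also had Ccn2 among its leading genes.

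The 4 thrombospondins differed in their levels by cell type, though all 4 were higher in fibroblast-like than in quiescent-like cells. Thbs1, which binds CD36 and CD47 and can activate latent TGF-beta, was the only thrombospondin above 20 CPM in the quiescent-like, cycling-like, committed-like and cluster 2 cells of all libraries. It was at 63.0 and 66.0 CPM in the Pax7Cre libraries and 94.1 and 73.3 CPM in the miR-501KO libraries in cluster 2 and at 28.7 and 25.6 CPM in the Pax7Cre libraries and 32.9 and 30.1 CPM in the miR-501KO libraries in quiescent-like cells, which did not overlap. Committed-like cells, at 44.4 to 84.9 CPM, lay above the quiescent-like cells and overlapped cluster 2. Macrophage-like (89.7 to 269 CPM) and mural-like cells (120.2 to 213 CPM) also held Thbs1, and Schwann-like cells nearly none (0 to 4.53 CPM). Fibroblast-like cells of the 3 libraries with at least 20 of them held 5.52 to 9.48 times the quiescent-like level of Thbs1. Cluster 7 held 3.02 to 7.97 times that level. Thbs2, its anti-angiogenic relative, was at 165 to 371 CPM in fibroblast-like and 94.2 to 206 CPM in Schwann-like cells. In myogenic clusters Thbs2 reached 9.98 CPM in cluster 2 and 3.94 CPM in quiescent-like cells, and cluster 7 held 5.85 to 17.0 CPM. Thbs3 was at 3.23 to 4.30 CPM in quiescent-like and 0.539 to 1.60 CPM in committed-like cells. It was at 8.78 to 18.9 CPM in cluster 7, 17.2 to 40.3 CPM in mural-like and 38.7 to 81.2 CPM in fibroblast-like cells. Thbs4, the tendon thrombospondin, was at 319.8 to 1371 CPM in fibroblast-like cells and at most 2.82 CPM in quiescent-like, cycling-like, committed-like and cluster 2 cells. It also led the fibroblast-like cluster's genes, although it had not been used to make the clusters. In the 20 or more fibroblast-like cells of a library, 17.1% to 48.0% had a Thbs4 UMI after thinning (median depth 10068.5 before thinning).

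**Figure D1:**
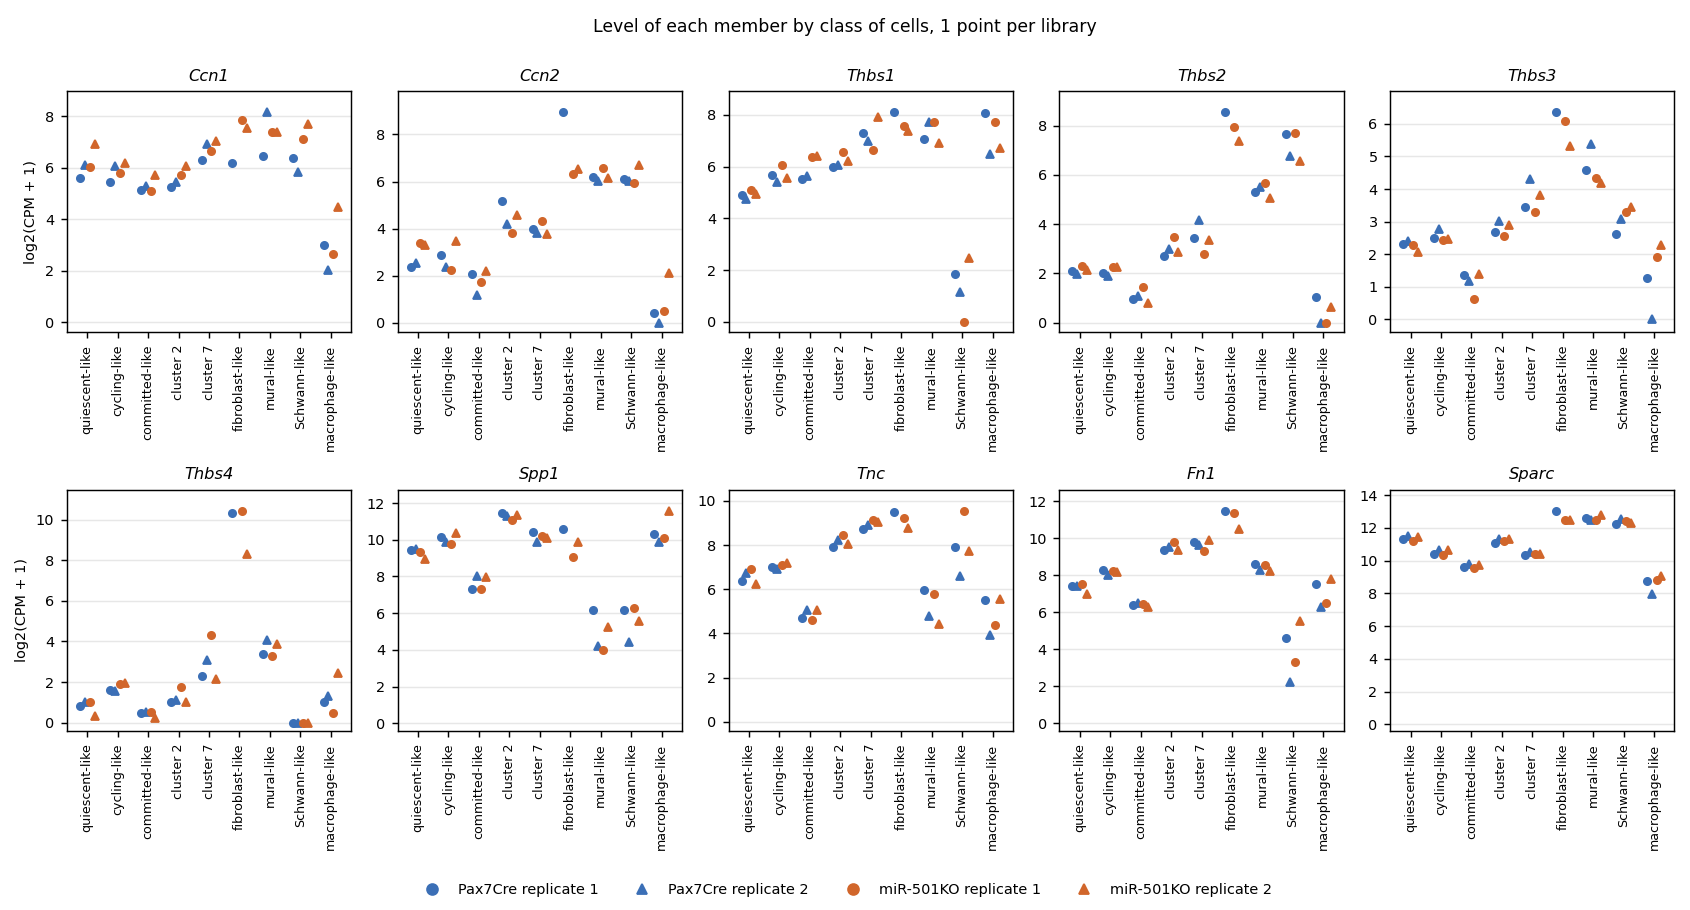
Level of each of the 10 genes (log2 of CPM + 1, vertical axis) in 9 classes of cells (horizontal axis), 1 point per library with at least 20 cells of the class. Blue is Pax7Cre, orange is miR-501KO, circles are replicate 1 and triangles replicate 2. Spp1, Fn1 and Tnc are highest among quiescent-like, cycling-like, committed-like and cluster 2 cells in cluster 2, whereas Thbs4 is high in fibroblast-like cells.

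The working name of the set speaks of activated progenitors, and 2 of the 10 genes had most of their UMIs elsewhere. Outside the myogenic and the single-library clusters lay 86.8% to 90.9% of a library's Thbs4 UMIs and 54.5% to 62.2% of its Thbs2 UMIs, although these cells were only 7.97% to 14.05% of all cells. Fibroblast-like cells alone held 83.0% to 89.8% of Thbs4 UMIs and 33.8% to 43.2% of Thbs2 UMIs. The shares were 27.5% to 33.5% for Ccn2 and 18.3% to 33.8% for Thbs3. For Spp1, Tnc and Fn1 they were 2.08% to 7.95%, 3.47% to 11.3% and 10.2% to 15.2%, and cluster 2 held 37.6% to 49.7%, 36.3% to 44.4% and 40.1% to 46.0% of their UMIs. With cells limited to 10% mitochondrial UMIs and clustered anew, a cluster with fibroblast markers led by Thbs4 counted as myogenic, and the median Thbs4 share outside myogenic clusters fell to 2.95%.

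**Figure D2:**
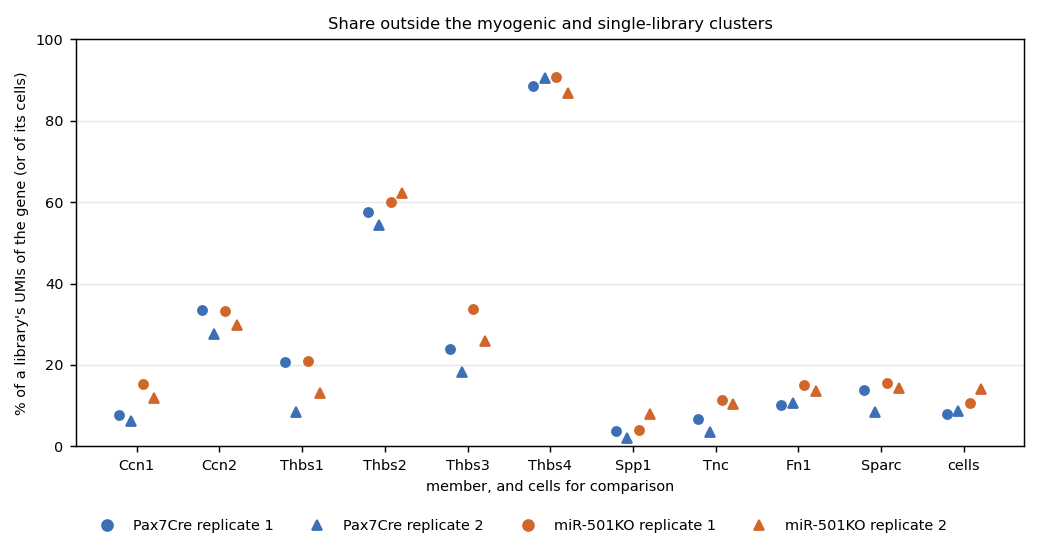
Percent of a library's UMIs of each gene (vertical axis) that lay outside the myogenic and single-library clusters, 1 point per library, with the percent of all cells outside them at the right. Thbs4 lies above 80% in all 4 libraries and Thbs2 above 50%, whereas Spp1 and Tnc lie below 12%.

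Within single myogenic cells, thinned to 5000 UMIs, Spp1, Tnc and Fn1 tended to be found in the same cells. Pearson's r of log2(UMIs + 1) over the 1671 to 3163 cells of a library was 0.51 to 0.55 for Spp1 and Fn1, 0.45 to 0.52 for Tnc and Fn1 and 0.35 to 0.42 for Spp1 and Tnc. These are descriptions of cells that share a library, and the same 3 genes had been picked for a shared state. Sparc correlated with Fn1 at 0.14 to 0.30, and Ccn1 with Spp1 at -0.09 to -0.05. For the sparse genes Ccn2, Thbs2, Thbs3 and Thbs4, found in 0.632% to 4.01% of the thinned cells, a value near 0 says little. The 10% of myogenic cells with the most Spp1 held 51.0% to 56.6% of its UMIs, and 1 thinned cell had 160 of 5000. For Sparc, which was found in 97.2% to 97.9% of cells, the top 10% held 24.1% to 24.7%. Sparc was thus spread over nearly all cells and Spp1 concentrated in some. Ccn2 was rarer still but reached 30 UMIs in 1 thinned cell, and its variance was 2.93 to 8.21 times its mean, whereas for Thbs2 it was 0.977 to 1.098 times.

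**Figure D3:**
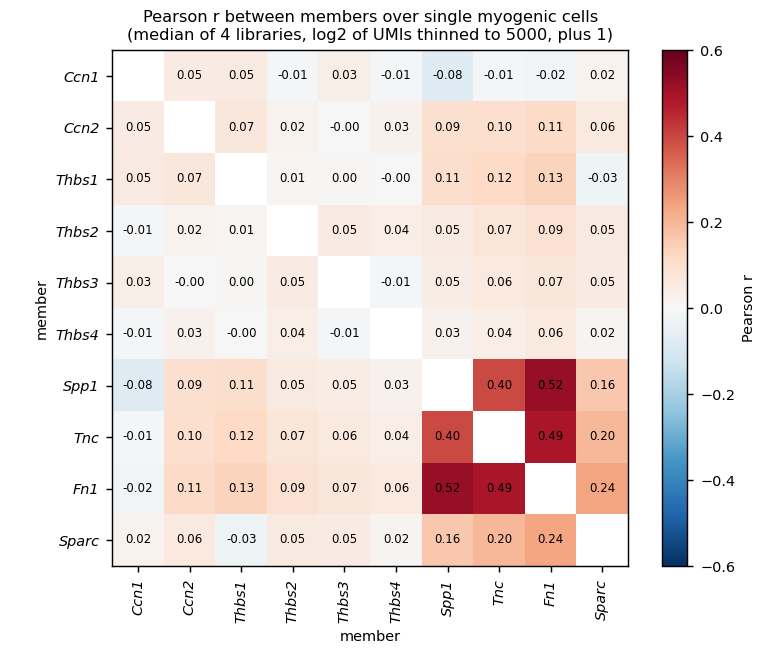
Pearson's r between each pair of the 10 genes (both axes) over single myogenic cells of a library, as the median of 4 libraries, from log2(UMIs + 1) after thinning each cell to 5000 UMIs. Red is positive and blue negative, and the 3 pairs among Spp1, Tnc and Fn1 have the highest values, between 0.40 and 0.52.

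Over 36 sums of a class and a library, the genes outside the set with the most similar pattern to Spp1 among 8739 genes were Adcy7 (0.92), Hpgd (0.90) and Lsp1 (0.87), with Pearson's r of log2(CPM + 1) in parentheses. Those for Fn1 were Mrc2 (0.90), a collagen receptor, Chst2 (0.90) and Srpx (0.87), and those for Tnc were Col12a1 (0.89), a fibril-associated collagen, Aebp1 (0.89) and Ssr1 (0.89). For Sparc they were Ikbip (0.95), Nid1 (0.94), a basement membrane protein, and Lhfp (0.93). Nid1 was also close to Ccn2 (0.92), beside P4ha2 (0.92), a collagen prolyl hydroxylase, and Ndn (0.92). P4ha2 was again first for Thbs2 (0.95), before Col16a1 (0.95) and Postn (0.91), which encodes periostin. Thbs3 was closest to the lysyl oxidase genes Loxl3 (0.92) and Loxl2 (0.91) and to Col3a1 (0.91). Thbs4 was closest to Mfap5 (0.94) and to the tendon genes Tnmd (0.92) and Fmod (0.89). Ccn1 was closest to Mpzl1 (0.86), Lzts2 (0.85) and Hmgn3 (0.85), and Thbs1 to Il13ra1 (0.87), Dse (0.86) and Lpl (0.83). The sums share libraries and differ in depth, so the values rank genes and test nothing.

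To follow the 10 genes from progenitor to committed cell without clusters of their own making, cells of the myogenic clusters were gated on genes outside the set. Myog-gated cells had at least 1 Myog UMI and no Pax7 UMI, and Pax7-gated cells at least 1 Pax7 UMI and no Myog UMI, both without Mki67 and Top2a together, in counts thinned to 5000 UMIs. Myog encodes myogenin, which marks entry into differentiation, and Pax7 marks satellite cells. Each library gave 336 to 806 Myog-gated and 495 to 697 Pax7-gated cells. Of the Pax7-gated cells, 61.7% to 72.3% were quiescent-like and 21.0% to 26.3% were of cluster 2. Their median depth was 23184 to 29636 UMIs, against 32124 to 40492 in Myog-gated cells.

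Most of the set was lower in Myog-gated than in Pax7-gated cells. Of the 7 genes open to a test, 5 fell (Ccn1, Ccn2, Thbs2, Thbs3 and Sparc), 1 rose (Thbs1) and 1 did not pass (Thbs4), by edgeR's quasi-likelihood test at an adjusted p under 0.05. Over all 13140 genes tested, 69.7% were called, 35.2% lower and 34.6% higher, so calls in this contrast are common. The median log2 fold change of the 7 was -1.12, beside -0.01 over all genes tested.

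Sparc was at 2348 and 2714 CPM in the Pax7Cre libraries and 2329 and 2735 CPM in the miR-501KO libraries in Pax7-gated cells and at 999 and 1125 CPM in the Pax7Cre libraries and 927 and 1072 CPM in the miR-501KO libraries in Myog-gated cells. The gates did not overlap, and the log2 fold change was -1.15 ± 0.03 (SE) at an adjusted p of 6.84e-13 by edgeR. Ccn2 was at 9.68 and 6.91 CPM in the Pax7Cre libraries and 13.2 and 12.7 CPM in the miR-501KO libraries in Pax7-gated cells and at 4.55 and 3.61 CPM in the Pax7Cre libraries and 3.25 and 5.88 CPM in the miR-501KO libraries in Myog-gated cells. It was lower in all 4 libraries without overlap, and its log2 fold change was -1.12 ± 0.20 (SE) at an adjusted p of 1.29e-04 by edgeR. Ccn1 was at 53.2 and 58.0 CPM in the Pax7Cre libraries and 69.9 and 106 CPM in the miR-501KO libraries in Pax7-gated cells and at 34.4 and 48.7 CPM in the Pax7Cre libraries and 35.5 and 57.8 CPM in the miR-501KO libraries in Myog-gated cells. Its gates overlapped across libraries, but the value fell within each of the 4, and the log2 fold change was -0.53 ± 0.09 (SE) at an adjusted p of 9.89e-05 by edgeR. Over 11 alternative settings the Ccn1 log2 fold change stayed between -0.69 and -0.41 and past the threshold in each.

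Thbs1 went the other way, as the one gene of the 7 that rose. It was at 38.5 and 31.1 CPM in the Pax7Cre libraries and 54.2 and 49.1 CPM in the miR-501KO libraries in Pax7-gated cells and at 50.5 and 53.0 CPM in the Pax7Cre libraries and 80.0 and 91.8 CPM in the miR-501KO libraries in Myog-gated cells. The Myog-gated level was 1.31 to 1.87 times the Pax7-gated level of the same library, and the log2 fold change was 0.80 ± 0.12 (SE) at an adjusted p of 2.95e-05 by edgeR. It passed under all 11 alternatives, with values from 0.70 to 0.89. Thbs2 was at 3.78 and 3.87 CPM in the Pax7Cre libraries and 6.74 and 4.90 CPM in the miR-501KO libraries in Pax7-gated cells and at 1.94 and 1.71 CPM in the Pax7Cre libraries and 2.19 and 1.67 CPM in the miR-501KO libraries in Myog-gated cells, with a log2 fold change of -1.17 ± 0.16 (SE) at an adjusted p of 1.55e-05 by edgeR. Thbs3 was at 4.63 and 5.33 CPM in the Pax7Cre libraries and 4.09 and 4.26 CPM in the miR-501KO libraries and at 2.04 and 2.23 CPM in the Pax7Cre libraries and 0.731 and 2.47 CPM in the miR-501KO libraries in these gates, with a log2 fold change of -1.12 ± 0.20 (SE) at an adjusted p of 1.51e-04 by edgeR. Neither gene overlapped between the gates, and both were below 10 CPM in every sum.

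Thbs4 was at 0.691 and 1.08 CPM in the Pax7Cre libraries and 1.57 and 0.828 CPM in the miR-501KO libraries in Pax7-gated cells and at 0.646 and 0.723 CPM in the Pax7Cre libraries and 2.03 and 0.290 CPM in the miR-501KO libraries in Myog-gated cells, on 66 and 58 UMIs in all. Its log2 fold change was -0.11 ± 0.34 (SE) at an adjusted p of 0.793 by edgeR, with a 95% interval from -0.77 to 0.56. The sign of this value depended on which cells were gated. With gates over all cells, which added the fibroblast-like and other cell types and the single-library clusters, the log2 fold change was 2.82 (adjusted p = 0.00857). The Myog gate of miR-501KO replicate 1 then held 1064 cells in place of 336, and those of the other libraries 853, 353 and 428 in place of 806, 345 and 371. In that setting Ccn2 and Thbs2 no longer passed, at -0.33 (adjusted p = 0.206) and -0.54 (adjusted p = 0.0967). With gates of 2 UMIs in unthinned counts Thbs4 passed in the other direction, at -1.09 (adjusted p = 0.0157, all by edgeR).

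Spp1, Tnc and Fn1 are given in the same gates as a description. Spp1 was at 1501 and 1258 CPM in the Pax7Cre libraries and 1121 and 1227 CPM in the miR-501KO libraries in Pax7-gated cells and at 536 and 471 CPM in the Pax7Cre libraries and 437 and 541 CPM in the miR-501KO libraries in Myog-gated cells. Tnc was at 154 and 170.2 CPM in the Pax7Cre libraries and 196 and 160.0 CPM in the miR-501KO libraries and at 55.3 and 64.3 CPM in the Pax7Cre libraries and 55.0 and 59.8 CPM in the miR-501KO libraries, and Fn1 at 389.9 and 358 CPM in the Pax7Cre libraries and 416 and 349.7 CPM in the miR-501KO libraries and at 152 and 167 CPM in the Pax7Cre libraries and 159 and 142 CPM in the miR-501KO libraries. For each of the 3 genes, all Myog-gated values lay below all Pax7-gated values, and the log2 fold changes were -1.22 ± 0.09 (SE), -1.39 ± 0.09 (SE) and -1.14 ± 0.08 (SE).

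Markers moved with the gates as well. The summed level of 11 fibroblast-like markers, all detected in both gates, was 4045 to 4326 CPM in Pax7-gated and 1088 to 1274 CPM in Myog-gated cells. That list holds the collagen genes Col1a1, Col1a2 and Col3a1. The 8 endothelial-like markers summed to at most 9.96 CPM in both gates. The other way, with Thbs1, moved 10 mural-like markers, which include the muscle gene Des, at 1936 to 2299.7 CPM in Pax7-gated and 4503 to 5463 CPM in Myog-gated cells. So did 6 tenocyte-like markers (without Thbs4 and Comp), at 24.7 to 31.7 CPM and 117 to 153 CPM. The 22 immediate early genes summed to 5262 to 7839.7 CPM and 2652 to 3341 CPM. Ccn1 is itself an immediate early gene, and the part of these lists in the members' differences was not tested.

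Cycling-gated cells had Mki67 and Top2a UMIs and no Myog UMI, 230 to 498 cells a library. Against Pax7-gated cells, 2 of the 7 tested genes passed, Sparc lower and Thbs4 higher, beside 61.7% of all 13140 genes (31.6% lower, 30.1% higher). Sparc was at 1579 and 1939 CPM in the Pax7Cre libraries and 1624 and 2032 CPM in the miR-501KO libraries in cycling-gated cells, below its Pax7-gated values in every library, with a log2 fold change of -0.47 ± 0.03 (SE) at an adjusted p of 1.97e-08 by edgeR. Thbs4 was at 2.66 and 1.67 CPM in the Pax7Cre libraries and 3.58 and 2.59 CPM in the miR-501KO libraries, all above the Pax7-gated values, with a log2 fold change of 1.41 ± 0.29 (SE) at an adjusted p of 6.08e-04 by edgeR. These Thbs4 levels came from 160 UMIs in cycling-gated and 66 in Pax7-gated cells, and they remained far below the fibroblast-like level. The 6 tenocyte-like markers moved with them, from 24.7 to 31.7 CPM in Pax7-gated to 38.8 to 51.0 CPM in cycling-gated cells, without overlap, and their part in the Thbs4 value was not tested. Thbs3 was higher in each library (1.15 to 1.40 times). Its log2 fold change of 0.40 ± 0.17 (SE) at an adjusted p of 0.0530 by edgeR missed the threshold and passed in 6 of 11 alternatives. For Ccn1, Ccn2, Thbs1 and Thbs2 the values were -0.17 ± 0.09 (SE), -0.36 ± 0.18 (SE), 0.15 ± 0.12 (SE) and -0.29 ± 0.15 (SE), with adjusted p from 0.104 to 0.311 by edgeR. Ccn1 passed without Pax7Cre replicate 2 (-0.26) and without the high-mitochondrial and endothelial-marker clusters (-0.25), a setting chosen after seeing the data. Ccn2 passed without miR-501KO replicate 2 (-0.57), at a limit of 10% mitochondrial UMIs (-0.42) and without those clusters (-0.46). The high-mitochondrial cluster 7 made up 4.35% to 19.0% of a library's cycling-gated cells. The 95% intervals of the 4 genes with all libraries lay between -0.71 and 0.40. Spp1, Tnc and Fn1 were at -0.17 ± 0.09 (SE), -0.06 ± 0.08 (SE) and -0.14 ± 0.08 (SE) as a description, and the gates overlapped for each.

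**Figure D4:**
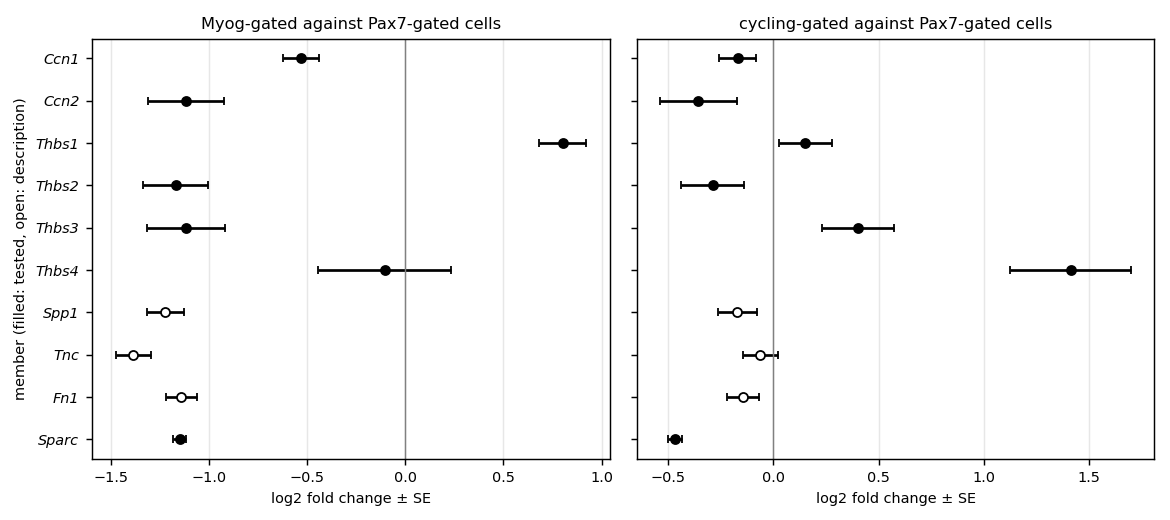
Log2 fold change ± SE (horizontal axis) of each of the 10 genes (vertical axis) in Myog-gated (left) and cycling-gated cells (right) against Pax7-gated cells, from 12 sums of 4 libraries. Filled points are tested genes and open points (Spp1, Tnc, Fn1) a description. At the left, 8 of the 10 points lie below -0.5 and Thbs1 lies at 0.80, and at the right Thbs4 lies at 1.41.

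Of 23 other matricellular genes, 12 were tested between Myog-gated and Pax7-gated cells. There 9 fell and 2 rose (91.7% called beside 69.7% of all genes, median -1.29). Among the genes that fell most were Ccn5 (log2 fold change -3.43 ± 0.13, adjusted p = 6.55e-12), the CCN protein without a C-terminal domain, and Sparcl1 (-3.15 ± 0.17, adjusted p = 4.39e-10), the close relative of Sparc. Those that rose were the galectins Lgals1 (0.42 ± 0.04, adjusted p = 5.16e-07) and Lgals3 (0.37 ± 0.07, adjusted p = 3.19e-04), and Lgals3 lost its call with gates of 2 UMIs. In cycling-gated cells 3 of 12 rose and 6 fell (75% called beside 61.7% of all genes). Dmp1 (1.85 ± 0.09, adjusted p = 4.59e-10) and Lgals1 (0.65 ± 0.04, adjusted p = 7.02e-09) rose, as did Smoc2 (0.89 ± 0.24, adjusted p = 0.00551), which lost its call in 2 of 11 alternatives, without miR-501KO replicate 1 and with gates over all cells. Ccn5 (-1.496 ± 0.10, adjusted p = 9.56e-09) and Sparcl1 (-0.72 ± 0.14, adjusted p = 3.36e-04) fell again, though Sparcl1 did not pass with gates over all cells. In both contrasts the values in parentheses are log2 fold changes ± SE with edgeR adjusted p.

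Receptors of these proteins moved in both directions. Of 24 receptor genes tested in Myog-gated cells, 16 fell and 4 rose (83.3% called beside 69.7% of all genes, median -1.02). Integrin subunit genes Itgb6 (log2 fold change 4.57 ± 0.19, adjusted p = 2.46e-11), Itga6 (2.85 ± 0.31, adjusted p = 1.01e-06) and Itga4 (1.76 ± 0.14, adjusted p = 3.07e-08) rose by edgeR's test. Itgb6 pairs with αv to bind fibronectin and latent TGF-beta, and Itga4 pairs with β1 to bind fibronectin and osteopontin. Itga1 (-2.60 ± 0.16, adjusted p = 1.75e-09), a collagen receptor subunit, Itga8 (-2.25 ± 0.19, adjusted p = 6.73e-08) and Ptprz1 (-1.84 ± 0.23, adjusted p = 5.22e-06), a phosphatase that binds tenascin, fell most, but Itga1 and Ptprz1 lost their calls with gates over all cells. In cycling-gated cells 7 of 24 rose and 8 fell, 62.5% called and so near the 61.7% of all genes. Cd36 (5.32 ± 0.41, adjusted p = 4.40e-08), the thrombospondin and fatty acid receptor, rose most, from 0.127 to 0.382 CPM in Pax7-gated to 2.12 to 25.7 CPM in cycling-gated cells. Cd36 is also an endothelial and macrophage gene, and 8 endothelial-like markers summed to 7.82 to 9.96 CPM in Pax7-gated and 15.1 to 123 CPM in cycling-gated cells. Without the high-mitochondrial cluster and the cluster with endothelial markers, a setting chosen after seeing the data, Cd36 was too low to pass the filter on low counts. Itga6 (2.37 ± 0.32) and Itgb6 (1.46 ± 0.26) rose here too, and Itgb5 (-0.90 ± 0.06), Lrp1 (-0.68 ± 0.04) and Sdc4 (-0.55 ± 0.08) fell most.

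Among 21 TEAD-linked genes, 12 fell and 4 rose in Myog-gated cells (76.2% called beside 69.7% of all genes, median -0.71). Ankrd1 (log2 fold change 1.61 ± 0.14, adjusted p = 6.17e-08), Nt5e (1.26 ± 0.26, adjusted p = 6.50e-04) and Amotl2 (1.17 ± 0.05, adjusted p = 3.17e-11) rose by edgeR's test, so genes that share this link with Ccn1 and Ccn2 did not all move with them. Ccdc80 (-2.45 ± 0.08, adjusted p = 1.72e-12), F3 (-1.81 ± 0.23, adjusted p = 4.53e-06), which encodes tissue factor, and Crim1 (-1.68 ± 0.38, adjusted p = 0.00116) fell most, and Crim1 lost its call with gates of 2 UMIs. In cycling-gated cells 3 rose, 7 fell and 11 did not pass (47.6% called, below the 61.7% of all genes). Those that rose were Dock5 (1.28 ± 0.31), Ankrd1 (0.61 ± 0.14) and Nuak2 (0.66 ± 0.26), the last of which lost its call in 7 of 11 alternatives, among them leaving out Pax7Cre replicate 1 or either miR-501KO library. Gadd45a (-1.36 ± 0.07), Ccdc80 (-0.93 ± 0.07) and Igfbp3 (-0.90 ± 0.10) fell most.

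Of 18 TGF-beta genes, 14 fell and 1 rose in Myog-gated cells (83.3% called beside 69.7% of all genes, median -0.50). In cycling-gated cells 16 fell and 1 rose (94.4% called beside 61.7% of all genes, median -0.49). Tgfbr3 (log2 fold change -2.12 ± 0.12, adjusted p = 7.43e-10), the co-receptor betaglycan, Bmp1 (-1.91 ± 0.05, adjusted p = 3.62e-13), a procollagen protease, and Ltbp4 (-1.34 ± 0.07, adjusted p = 4.14e-10), which anchors latent TGF-beta, fell most in Myog-gated cells. The ligand gene Tgfb3 (0.49 ± 0.05, adjusted p = 3.01e-07) was the one that rose. Tgfbr3 (-1.42 ± 0.11), Smad3 (-0.90 ± 0.12) and Bmp1 (-0.77 ± 0.05) fell most in cycling-gated cells, where Smad2 (0.26 ± 0.05) rose. All 22 immediate early genes tested fell in Myog-gated cells (median -0.94), with Ier3 (-1.81 ± 0.10, adjusted p = 5.38e-10), Zfp36 (-1.63 ± 0.09, adjusted p = 5.38e-10) and Fosb (-1.51 ± 0.08, adjusted p = 4.62e-10) lowest, and Ier3 lost its call with gates over all cells. In cycling-gated cells 16 of the 22 fell, with Btg2 (-0.89 ± 0.10), Zfp36 (-0.84 ± 0.08) and Fosl2 (-0.59 ± 0.06) lowest. Of the immediate early genes, 100% were called in Myog-gated and 72.7% in cycling-gated cells, all lower. Over all genes, 35.2% were lower in Myog-gated and 31.6% in cycling-gated cells.

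Between genotypes, edgeR called no gene over all cells, so 0% of 15725 genes, while 440 had an unadjusted p under 0.05 and DESeq2 called 12. Without Pax7Cre replicate 2, edgeR called 3. The values of the 10 genes are a description, since the choice of the set had used this contrast. Ccn2, one of the genes taken for leaning higher in the knockout, was at 16.7 and 9.05 CPM in the Pax7Cre libraries and 11.9 and 16.05 CPM in the miR-501KO libraries. It was lower in the knockout in run 1 (0.713 times) and higher in run 2 (1.77 times), with a log2 fold change of 0.09 ± 0.31 (SE). Thbs1, the other, was at 59.4 and 45.5 CPM in the Pax7Cre libraries and 66.6 and 62.9 CPM in the miR-501KO libraries. Both knockout values were above both control values, and the log2 fold change was 0.28 ± 0.15. Thbs2, at 7.52 and 7.34 CPM in the Pax7Cre libraries and 11.2 and 9.48 CPM in the miR-501KO libraries, and Tnc, at 132 and 139 CPM in the Pax7Cre libraries and 154 and 149.8 CPM in the miR-501KO libraries, also did not overlap. The fibroblast-like share was also higher in the knockout, at 0.727% and 0.547% of the Pax7Cre cells and 2.47% and 5.58% of the miR-501KO cells. Of the knockout libraries, the one with the larger share (replicate 2) had the lower Thbs2. The part of this share in the Thbs2 value was not tested. Within fibroblast-like cells Thbs2 was lower in the knockout, at 371 and 378 CPM in the Pax7Cre libraries (the latter from 10 cells) and 245 and 165 CPM in the miR-501KO libraries.

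These 3 of 10 genes (Thbs1, Thbs2, Tnc) had both miR-501KO libraries above both Pax7Cre libraries over all cells, as did 15.4% of all genes tested. Nothing is read from that count, because Thbs1 was chosen on it. Ccn1 was at 42.0 and 57.8 CPM in the Pax7Cre libraries and 56.4 and 86.8 CPM in the miR-501KO libraries, higher in the knockout within each run, but the groups overlapped. Thbs4 was at 10.6 and 12.5 CPM in the Pax7Cre libraries and 24.6 and 9.55 CPM in the miR-501KO libraries, and its high value in miR-501KO replicate 1 stood beside a larger fibroblast-like share than in the controls (2.47% of cells). miR-501KO replicate 2 had the largest such share (5.58%) and the lowest Thbs4, and the Thbs4 level within its fibroblast-like cells was 319.8 CPM against 1371 CPM in replicate 1. Spp1, Fn1, Sparc and Thbs3 had log2 fold changes of -0.02 ± 0.15, 0.03 ± 0.10, 0.01 ± 0.14 and -0.08 ± 0.14, and their groups overlapped. Sparc lay at 1800.5 and 2120.1 CPM in the Pax7Cre libraries and 1804 and 2194 CPM in the miR-501KO libraries, so the runs differed more than the genotypes.

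In the myogenic clusters alone, edgeR again called no gene (0% of 14968), with 461 at an unadjusted p under 0.05, and DESeq2 called 8. With the run as a replicate block, edgeR called 125 genes (118 higher, 7 lower, 0.835%), and none of the 10 was among them, the lowest adjusted p being 0.607 for Ccn1. Without the block, leaving out Pax7Cre replicate 1 or 2 or miR-501KO replicate 1 or 2 gave 32, 147, 3 and 29 called genes. Thbs1 was at 50.4 and 44.3 CPM in the Pax7Cre libraries and 66.6 and 59.3 CPM in the miR-501KO libraries. The knockout was 1.32 and 1.34 times the control in runs 1 and 2, and the log2 fold change was 0.35 ± 0.12 without the block. It ranged from 0.23 to 0.48 over 15 alternatives. Ccn1 was at 41.3 and 57.7 CPM in the Pax7Cre libraries and 54.0 and 83.1 CPM in the miR-501KO libraries, with a log2 fold change of 0.43 ± 0.22. Ccn2 was at 11.9 and 6.98 CPM in the Pax7Cre libraries and 7.64 and 12.2 CPM in the miR-501KO libraries, with a value of 0.02 ± 0.29 and again opposite directions in the 2 runs. Thbs2, Thbs4 and Tnc joined Thbs1 with both knockout libraries above both controls, 4 of 10 genes beside 16.8% of all genes. For Thbs2, Thbs4 and Tnc the knockout was 1.497, 1.58 and 1.31 times the control in run 1, and 1.09, 1.07 and 1.02 times the control in run 2. Spp1, Fn1, Sparc and Thbs3 had values of -0.10 ± 0.17, 0.06 ± 0.14, -0.02 ± 0.17 and -0.21 ± 0.18.

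Within the myogenic classes, the ratio of knockout to control for Thbs1 was largest in committed-like cells, at 44.4 and 49.4 CPM in the Pax7Cre libraries and 82.6 and 84.9 CPM in the miR-501KO libraries. In quiescent-like cells, cycling-like cells and cluster 2 its knockout means were 1.16, 1.21 and 1.30 times the control means. In Pax7-gated and Myog-gated cells they were 1.49 and 1.66 times. Ccn2 was higher in both knockout libraries in quiescent-like cells, at 4.15 and 4.78 CPM in the Pax7Cre libraries and 9.48 and 8.96 CPM in the miR-501KO libraries. In cluster 2, where Ccn2 was higher, the groups overlapped and the knockout mean was 0.690 times the control mean. Spp1 in quiescent-like cells was lower in both knockout libraries, at 689 and 720.1 CPM in the Pax7Cre libraries and 648 and 502 CPM in the miR-501KO libraries, whereas in cluster 2 the groups overlapped at 0.895 times. Thbs3, at low counts, did not keep the same direction over the classes. It was lower in the knockout in quiescent-like cells, at 3.91 and 4.30 CPM in the Pax7Cre libraries and 3.82 and 3.23 CPM in the miR-501KO libraries, and in cycling-like cells, at 4.65 and 5.84 CPM in the Pax7Cre libraries and 4.40 and 4.48 CPM in the miR-501KO libraries. In Schwann-like and macrophage-like cells it was higher in both knockout libraries, from 0 to 11 UMIs a library. Sparc and Fn1 means stayed within 0.894 to 1.11 times the control in the quiescent-like, cycling-like, committed-like and cluster 2 cells.

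**Figure D5:**
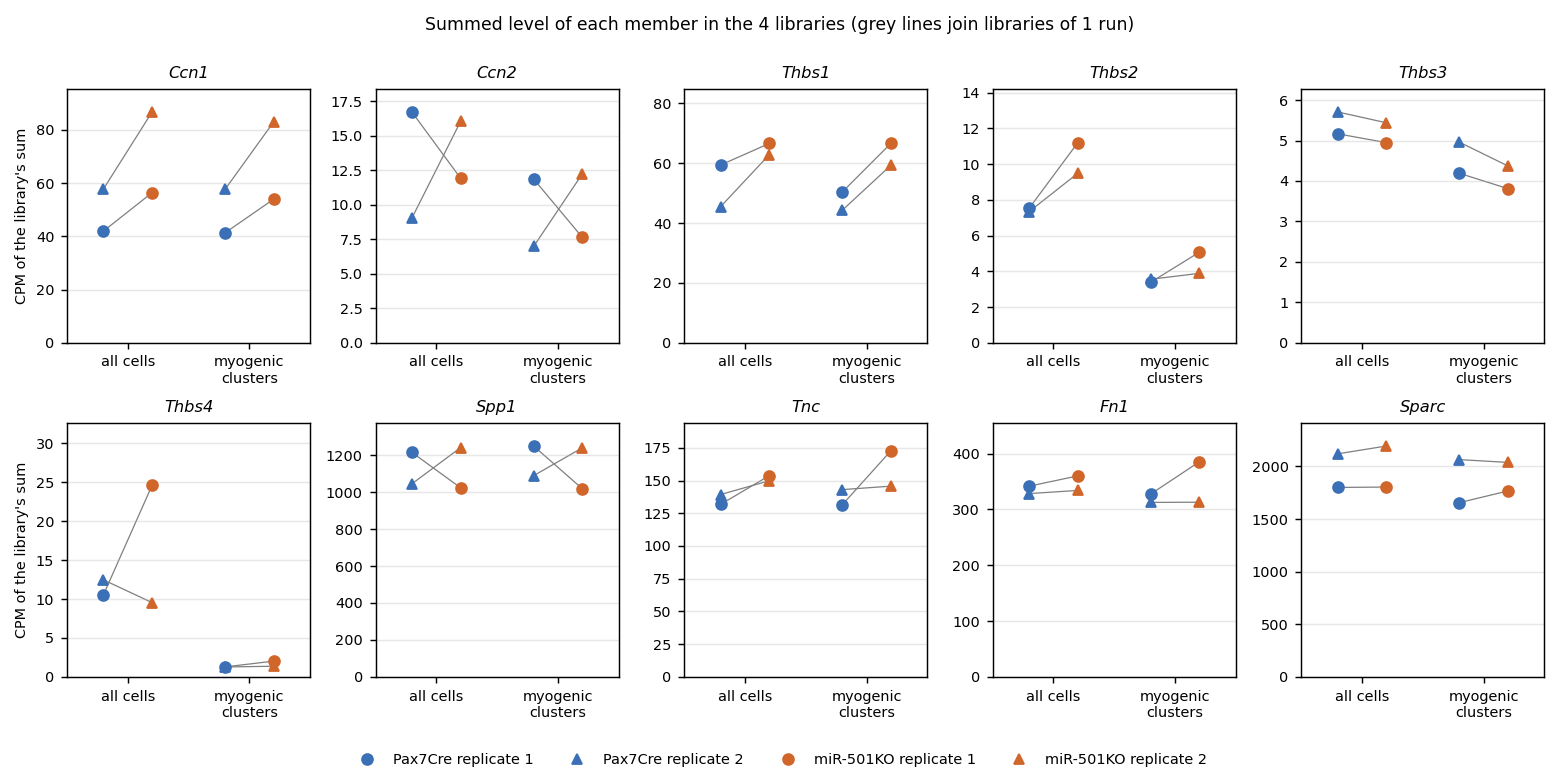
CPM of each of the 10 genes (vertical axis, from 0) in the sum of each library over all cells and over the myogenic clusters. Blue is Pax7Cre and orange miR-501KO, circles and triangles are replicates 1 and 2, and grey lines join the libraries of 1 run. The lines for Thbs1 and Ccn1 rise in both runs, whereas those for Ccn2 and Spp1 cross.

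None of the 5 other lists had a called gene between genotypes by edgeR. Over all cells, 3 of 19 other matricellular genes, 2 of 27 receptors, 2 of 22 TEAD-linked, 0 of 18 TGF-beta and 3 of 22 immediate early genes had an unadjusted p under 0.05. The lowest were Tnxb (0.91 ± 0.24, unadjusted p = 0.00942) and Ccn6 (1.73 ± 0.60, unadjusted p = 0.0277), Itga1 (0.40 ± 0.10, unadjusted p = 0.00656) and Cd36 (1.0004 ± 0.25, unadjusted p = 0.00666), Crim1 (0.51 ± 0.14, unadjusted p = 0.0112) and Ankrd1 (0.33 ± 0.10, unadjusted p = 0.0133), Ltbp2 (0.49 ± 0.20, unadjusted p = 0.0519) and Ltbp3 (-0.16 ± 0.08, unadjusted p = 0.0967), and Ier3 (0.42 ± 0.11, unadjusted p = 0.00964) and Atf3 (0.54 ± 0.19, unadjusted p = 0.0266), as log2 fold change ± SE. In myogenic clusters they were 2 of 15, 3 of 26, 2 of 21, 0 of 18 and 1 of 22. Lowest there were Tnxb (1.99 ± 0.54, unadjusted p = 0.00441) and Smoc1 (1.79 ± 0.52, unadjusted p = 0.00668), Cd36 (1.73 ± 0.41, unadjusted p = 0.00188) and Stab1 (0.91 ± 0.33, unadjusted p = 0.0217), Ankrd1 (0.41 ± 0.12, unadjusted p = 0.00737) and Crim1 (0.65 ± 0.22, unadjusted p = 0.0151), Smad7 (0.28 ± 0.13, unadjusted p = 0.0512) and Ltbp2 (0.41 ± 0.22, unadjusted p = 0.0870), and Ier3 (0.41 ± 0.13, unadjusted p = 0.0110) and Hspa1b (0.42 ± 0.20, unadjusted p = 0.0655). Cd36, a receptor of Thbs1, was at 1.87 and 2.43 CPM in the Pax7Cre libraries and 3.78 and 10.7 CPM in the miR-501KO libraries in myogenic clusters. With the run as a replicate block it passed, at a log2 fold change of 1.53 ± 0.20 (edgeR adjusted p = 1.05e-10), as did Tnxb at 2.01 ± 0.41 (adjusted p = 4.31e-04), although Tnxb stayed below 1 CPM in every library. That fit sets run and genotype on 4 libraries, which leaves little to estimate the spread from. Run differences did not correlate positively between groups (-0.195 in myogenic clusters), so these adjusted p-values carry little weight. Endothelial-like markers in these clusters summed to 13.8 and 26.3 CPM in the Pax7Cre libraries and 21.8 and 57.9 CPM in the miR-501KO libraries, highest where Cd36 was highest. The cluster with endothelial markers held 0.0872% and 0.219% of the Pax7Cre and 0.141% and 0.426% of the miR-501KO cells. Without it and the high-mitochondrial cluster, and with no block, the Cd36 log2 fold change was 0.37 ± 0.49 in place of 1.73 ± 0.41.

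Whether the genotype effect differed between Myog-gated and Pax7-gated cells was tested as an interaction, and no gene of 13140 was called by edgeR (0%), with 912 at an unadjusted p under 0.05, while DESeq2 called 5. Without miR-501KO replicate 2, edgeR called 6. Among the 10 genes the value farthest from 0 in units of its error was that of Ccn1, -0.43 ± 0.15, a description like the rest. It came from a knockout level of 1.58 times the control in Pax7-gated and 1.12 times in Myog-gated cells. Thbs1 had 0.20 ± 0.19, and its 95% interval ran from -0.17 to 0.58. In the lists, 5 of 12 other matricellular, 0 of 24 receptor, 5 of 21 TEAD-linked, 1 of 18 TGF-beta and 11 of 22 immediate early genes had an unadjusted p under 0.05. Lgals3 had 0.40 ± 0.10, adjusted p = 0.575 by edgeR. Other genes among those with the smallest p in their list were Ccdc80 (-0.49 ± 0.10, unadjusted p = 3.48e-04), Myof (0.22 ± 0.08, unadjusted p = 0.0162), Tgfbr3 (-0.68 ± 0.18, unadjusted p = 0.00311), Pmepa1 (-0.18 ± 0.10, unadjusted p = 0.101), Junb (-0.34 ± 0.06, unadjusted p = 2.49e-04), Egr1 (-0.29 ± 0.08, unadjusted p = 0.00359), Itga6 (1.08 ± 0.54, unadjusted p = 0.0684) and Itgb8 (-0.38 ± 0.20, unadjusted p = 0.0797).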

How the data were processed

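Single-cell RNA-seq counts of 4 libraries were analysed, 2 of Pax7Cre and 2 of miR-501KO, each from a pool of 3 mice. The deposited values are raw UMI counts per gene and barcode, which the authors made with Cell Ranger 6.0.2 per the file headers (the methods text names another version). The build is GRCm39 per the submitters' processing notes. Barcodes under 5000 UMIs or under 1000 genes were left out, no doublet caller was run and no doublets were removed. Total UMIs were 73665012 to 117527749 a library, and their number limits precision for the low genes by counting error. Cells were scaled to 10000 UMIs, and 2000 variable genes without the 10 genes, 30 components, 15 neighbours and Leiden resolution 0.5 (scanpy 1.11.5, leidenalg 0.10.2, Python 3.11.15) gave the clusters. Myogenic clusters had at least 20 cells, no other cell type's name, at most 90% of cells from 1 library, and a UMI of Pax7, Myf5, Myod1 or Myog in at least 50% of cells.

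Counts were summed per library, or per library and gate, and tested with edgeR 4.0.16 (TMM, filterByExpr, two-sided quasi-likelihood test, Benjamini-Hochberg adjustment over all genes kept, R 4.3.3). Gate contrasts came from 1 fit of 12 sums with the library as a block. The script was tested on simulated data. Alternatives were RLE size factors, DESeq2 1.42.0, no filter, each library left out, a limit of 10% mitochondrial UMIs, at least 2000 UMIs, other clusterings, other gates and the run as a replicate block. The labels place replicate 1 of both groups in one run and replicate 2 in the other. The correlation of the run differences between groups was 0.0061 over all cells and -0.195 in myogenic clusters. The replicates of a group were separate libraries by their counts, with a chi-square of 70.2 (Pax7Cre) and 67.2 (miR-501KO) for each degree of freedom.

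The 10 genes and the 5 other lists were chosen with earlier results of these data known. All 10 genes are named, with up to 3 genes per direction and list by size among called genes, or the 2 with the smallest p where none was called. One gene that this rule names is not reported here, though the counts of its list include it. For likeness, the 3 genes with the highest r were named among those with a mean of at least 10 CPM. Upstream and miRNA sequences are from RefSeq GRCm38.p6 and 3′ UTRs from GENCODE vM21, and no coordinate was carried between builds. 22 symbols were used by more than 1 gene, and none of them was a member.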

Additional observations from a re-analysis of the deposited data

Results flagged for a closer look

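Thbs1 was higher in cycling-gated than in Pax7-gated cells in both Pax7Cre libraries and lower in both miR-501KO libraries. Replicate 2 of each genotype hardly moved, and over all libraries the log2 fold change was 0.15 ± 0.12 (SE) at an adjusted p of 0.311 by edgeR. The cycling-gated level was 1.40 and 1.06 times the Pax7-gated level in the Pax7Cre libraries and 0.874 and 0.992 times in the miR-501KO libraries, a difference of -0.390 between the mean log2 ratios (miR-501KO minus Pax7Cre). It was flagged because all libraries of a genotype moved one way, and the difference was not tested.

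Barcodes with 2000 to 4999 UMIs, which the comparisons left out, held 100 to 397 barcodes a library. In them Thbs1 was at 72.1 and 60.8 CPM in the Pax7Cre libraries and 78.0 and 99.1 CPM in the miR-501KO libraries, with a ratio of means of 1.33. Sparc was at 1272 and 1422 CPM in the Pax7Cre libraries and 1434 and 1641 CPM in the miR-501KO libraries, with a ratio of 1.14. Both were flagged because both knockout libraries lay above both controls in data outside the main measurement. These barcodes came from the same libraries, and Thbs1 had been chosen for leaning higher in the knockout. No share over all genes is given for them, so nothing is read from the flag. The Pax7Cre replicate 2 value of Thbs1 rests on 21 UMIs.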

How the results depend on the processing

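Genotype counts of called genes rose from 0 under several settings. Over all cells, DESeq2 called 12, and leaving out 1 library gave 0 to 3. In myogenic clusters DESeq2 called 8, no filter 11, the replicate block 125, and leaving out 1 library 3 to 147. With the run numbers crossed between groups, a setting chosen after seeing the data, the block called 0. For the interaction, DESeq2 called 5, no filter 50, the limit of 10% mitochondrial UMIs 4 and leaving out 1 library 0 to 6. Leaving out the high-mitochondrial and endothelial-marker clusters, also chosen after seeing the data, gave 3. The causes were not tested.

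Thbs4 in Myog-gated against Pax7-gated cells turned from a log2 fold change of -0.11 to 3.66 at the limit of 10% mitochondrial UMIs and to 2.82 with gates over all cells. In the first setting a cluster with fibroblast markers counted as myogenic. That setting also lowered the median share of UMIs outside myogenic clusters to 18.4% for Ccn2, 22.9% for Thbs2, 11.5% for Thbs3, 2.95% for Thbs4 and 4.06% for Fn1, and the other 85 recomputed shares moved by less than the spread between libraries. Of the recomputed values of the 10 genes, 525 were counted as the same, 49 as moved, 12 gained a call, 2 lost one and 2 reversed. Of the recomputed values of named list genes, 877 kept their direction and side of the threshold, 15 lost a call and 14 gained one. The replicate block called none of the 10 genes, and over all cells it called 0 genes. Over all cells Thbs3 and Thbs2 had the fewest UMIs, 1821 and 3035. In the myogenic clusters Thbs4 was the sparsest, found in a median of 0.711% of a library's thinned cells, against 1.99% for Thbs2 and 2.69% for Thbs3. Depth limits the values of these genes.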
